A study of Mus musculus with 6 samples.

Results

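Axon guidance ligands and receptors were examined in RNA sequencing libraries of infarcted mouse cortex after photothrombotic stroke. The genes were taken by symbol and not by measured value: protein-coding genes named as semaphorins of classes 3 to 7, plexins, Eph receptors, ephrins, Slits, Robos, netrins or Unc5 receptors, plus Dcc and Nrp2. This gave 68 of the 56748 genes in the count table, 35 encoding ligands and 33 encoding receptors. The mice were male wild-type C57 animals whose age is not given in the sources used here, and all had a stroke in the left hemisphere made by an intravenous agent (100 mg/kg, not named in the labels) and a 532 nm laser. One group received saline and the other PLEA nanoparticles (an abbreviation that the labels do not explain) by tail vein 2 hours later, 100 µL in each case, and tissue was taken on day 3. There were 3 libraries per group and no unlesioned tissue was analysed here, so the comparison is of treatments after stroke. Whether each library is a different mouse is not said in the labels. The p-values therefore rest on the spread between libraries, which may be partly or wholly technical.

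Guidance cues steer growing axons by attraction or repulsion at the growth cone. Semaphorins signal through plexins, with neuropilins such as Nrp2 as co-receptors for the secreted class 3 members. Ephrins are bound to the membrane and signal to Eph receptor tyrosine kinases on the neighbouring cell, Slits are secreted repellents read by Robo receptors, and netrins attract through Dcc and repel through Unc5 receptors. In the adult brain many of these genes are used at synapses, in oligodendrocytes and in vessel walls, and after cortical injury several are known as limits on axon regrowth.

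Total counts ranged from 16810448 to 17516434 per library, and the guidance genes held 0.338% to 0.371% of them. Markers of cortical excitatory neurons (7 of 7 genes in the table, none at 0) summed to between 1007 and 1754 CPM (a count relative to its library's total, after correction of that total by a normalization factor) in the 6 libraries. Striatal markers (9 of 9) summed to 824, 195 and 1848 CPM in saline replicates 1, 2 and 3. In PLEA replicates 1, 2 and 3 they summed to 875, 1921 and 1634 CPM. All 9 had a log2 fold change above 0 (PLEA over saline), with a median of 0.535, and the sums of the groups overlapped. Meningeal markers (10 of 10) summed to 139 to 183 CPM in saline and 57.0 to 78.9 CPM in PLEA, microglial markers (6 of 6) to 196 to 524 CPM and 101 to 274 CPM, astrocyte markers (5 of 5) to 1129 to 2897 CPM and 717 to 1266 CPM, and choroid plexus markers (4 of 4) to 5.57 to 23.0 CPM and 10.4 to 329 CPM. Mural cell markers (4 of 4) summed to 196 to 313 CPM in saline and 157 to 191 CPM in PLEA. Markers of infiltrating myeloid cells summed to 1.45 to 9.21 CPM in saline and 0.503 to 1.10 CPM in PLEA, with 3 of 5 at 0 in at least 1 library. The choroid plexus sums were 10.4, 36.2 and 329 CPM in PLEA replicates 1, 2 and 3. In such bulk tissue, fewer cells of a type and less RNA per cell cannot be told apart. Whether the libraries differ in the extent of the tissue taken was not tested.

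Per length, the guidance genes covered a wide range of levels. The highest were Sema7a, a membrane-anchored semaphorin, with a mean of 36.1 CPM per kilobase over the 6 libraries, Efnb3, a transmembrane ephrin, with 33.6, Ephb6, an Eph receptor without kinase activity, with 31.5, and Epha4, a receptor that binds ephrins of both classes, with 27.9 CPM per kilobase. The order among these 4 is not separated by their spread, since their ranges over libraries were 24.4 to 45.4, 22.7 to 43.4, 24.95 to 45.8 and 24.2 to 30.2 CPM per kilobase. The lowest were Efna4, with 1 to 7 counts per library, which did not pass the filter on low counts, and Epha1, with 7 to 14 counts per library. The other 67 genes passed the filter and were tested. In several families 1 member held a large share of the level: Slit1 held 55.7% to 70.7% of the summed Slit level per kilobase, Ephb6 62.8% to 78.9% of the Ephb level, Efnb3 58.8% to 75.8% of the Efnb level, Unc5a 47.1% to 59.6% of the Unc5 and Dcc level and Epha4 38.8% to 45.7% of the Epha level, as ranges over the libraries. Efna3 held 43.3% to 59.9% of the Efna level and Robo2 43.0% to 54.8% of the Robo level. Such shares depend on the deposited lengths, which were 5921 bases for Slit1, 25433 for Slit2 and 6067 for Slit3. The 20 semaphorins, and the 10 plexins and Nrp2, form larger families, so their top shares cannot be compared with those of the smaller ones. Semaphorin means ran from 0.678 (Sema3b) to 36.1 CPM per kilobase (Sema7a). Plxnd1, the highest plexin, held 20.5% or less of the summed level of plexins and Nrp2, and Sema7a held 19.5% to 30.8% of the level of the 20 semaphorins. Ntn1 held 27.0% to 43.9% of the netrin level and was under Ntn4 per kilobase in saline replicate 2 and PLEA replicate 1.

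**Figure D1:**
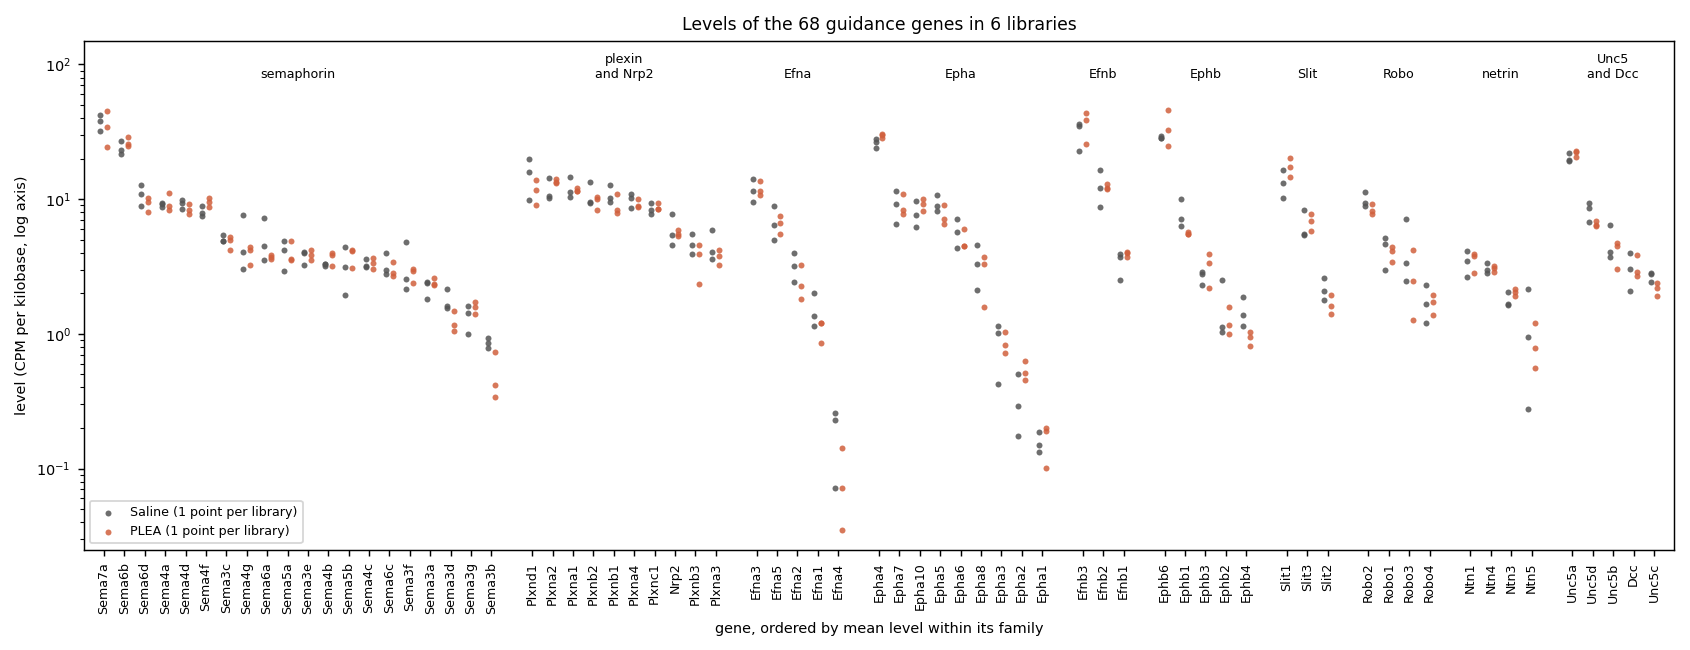
Level of each of the 68 guidance genes in CPM per kilobase (log axis), by family and ordered by mean within it, with 1 point per library (3 saline, grey, and 3 PLEA, orange). Each family has members far apart in level, and the points of both groups lie close together for most genes.

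The sequence before the start of transcription was rich in CG dinucleotides for most of these genes. RefSeq starts on GRCm38.p6 were found for 58 of the 68 genes, 74 starts in all. In the 250 bases upstream, the guidance genes had a median of 15.5 CG (a motif that reads the same on both strands, range 0 to 46), against 10.0 at all 21263 starts of protein-coding genes. At least 1 CG was present at 98.6% of the guidance gene starts and 93.4% of the protein-coding starts, and at least 10 at 68.9% and 50.1%. The upstream sequences of 3 genes with a single start are printed, chosen for their level or p and not for their CG count, with each CG in capitals: Sema7a, the highest level (chr9:57939862-57940111, plus strand, 17 CG), Epha1, the lowest level among the tested genes (chr6:42373269-42373518, minus strand, 9 CG), and Ephb1, the smallest p between treatments (chr9:102354694-102354943, minus strand, 10 CG), all 5′ to 3′.
Sema7a: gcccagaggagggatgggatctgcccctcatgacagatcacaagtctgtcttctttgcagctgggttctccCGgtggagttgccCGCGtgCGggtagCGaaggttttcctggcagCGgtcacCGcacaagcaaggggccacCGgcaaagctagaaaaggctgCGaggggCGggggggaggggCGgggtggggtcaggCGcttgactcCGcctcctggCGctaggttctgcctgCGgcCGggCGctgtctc
Epha1: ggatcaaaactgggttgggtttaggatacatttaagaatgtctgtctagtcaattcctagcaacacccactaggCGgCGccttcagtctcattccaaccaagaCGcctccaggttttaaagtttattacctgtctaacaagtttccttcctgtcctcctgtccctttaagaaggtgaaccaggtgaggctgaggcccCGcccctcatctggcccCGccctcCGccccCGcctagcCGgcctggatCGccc
Ephb1: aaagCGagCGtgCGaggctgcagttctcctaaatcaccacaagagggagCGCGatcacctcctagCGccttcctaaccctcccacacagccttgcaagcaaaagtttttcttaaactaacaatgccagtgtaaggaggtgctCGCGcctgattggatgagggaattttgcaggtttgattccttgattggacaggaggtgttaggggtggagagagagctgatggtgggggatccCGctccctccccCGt

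No guidance gene passed the test between PLEA and saline. The edgeR quasi-likelihood test called 0 of 67 higher and 0 lower at an adjusted p of 0.05, where 0% of the 17584 tested genes were called in either direction, and the smallest adjusted p among the 67 was 0.818. DESeq2 and limma voom also called 0 of them. At an unadjusted p under 0.05, 0 guidance genes were higher (2.28% of all tested genes) and 6 were lower, or 8.96%, against 3.58% of all tested genes. These were Ephb1, Ephb4, Sema3b, Sema3d, Unc5c and Unc5d. The count depended on single libraries: without PLEA replicate 2 it was 1 (Sema3d), which is 1.49% against 1.89% of all tested genes, without PLEA replicate 3 it was 2 (2.99%, against 1.72%), and without saline replicate 2 or 3 it was 3 (4.48%, against 4.56% and 4.93% of all tested genes).

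PLEA and saline libraries did not overlap for 5 guidance genes lower in PLEA (7.46%, against 5.54% of all tested genes) and for 1 higher, Epha4 (1.49%, against 5.16%). The log2 fold change was below 0 for 40 of 67 genes, or 59.7%, against 51.0% of all tested genes, and the medians were -0.05 and -0.005. Ligands split evenly, 17 above and 17 below 0, while 23 of 33 receptors were below 0. Differences of more than a doubling or a halving lay outside the 95% interval of the log2 fold change for 55 of 67 guidance genes (82.1%, against 69.7% of all tested genes). The interval reached a log2 value of 1 or -1 for the other 12: Epha1, Epha2, Epha8, Ephb2, Ephb4, Efna1, Efna2, Ntn5, Robo3, Sema3b, Sema3d and Sema4g.

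**Figure D2:**
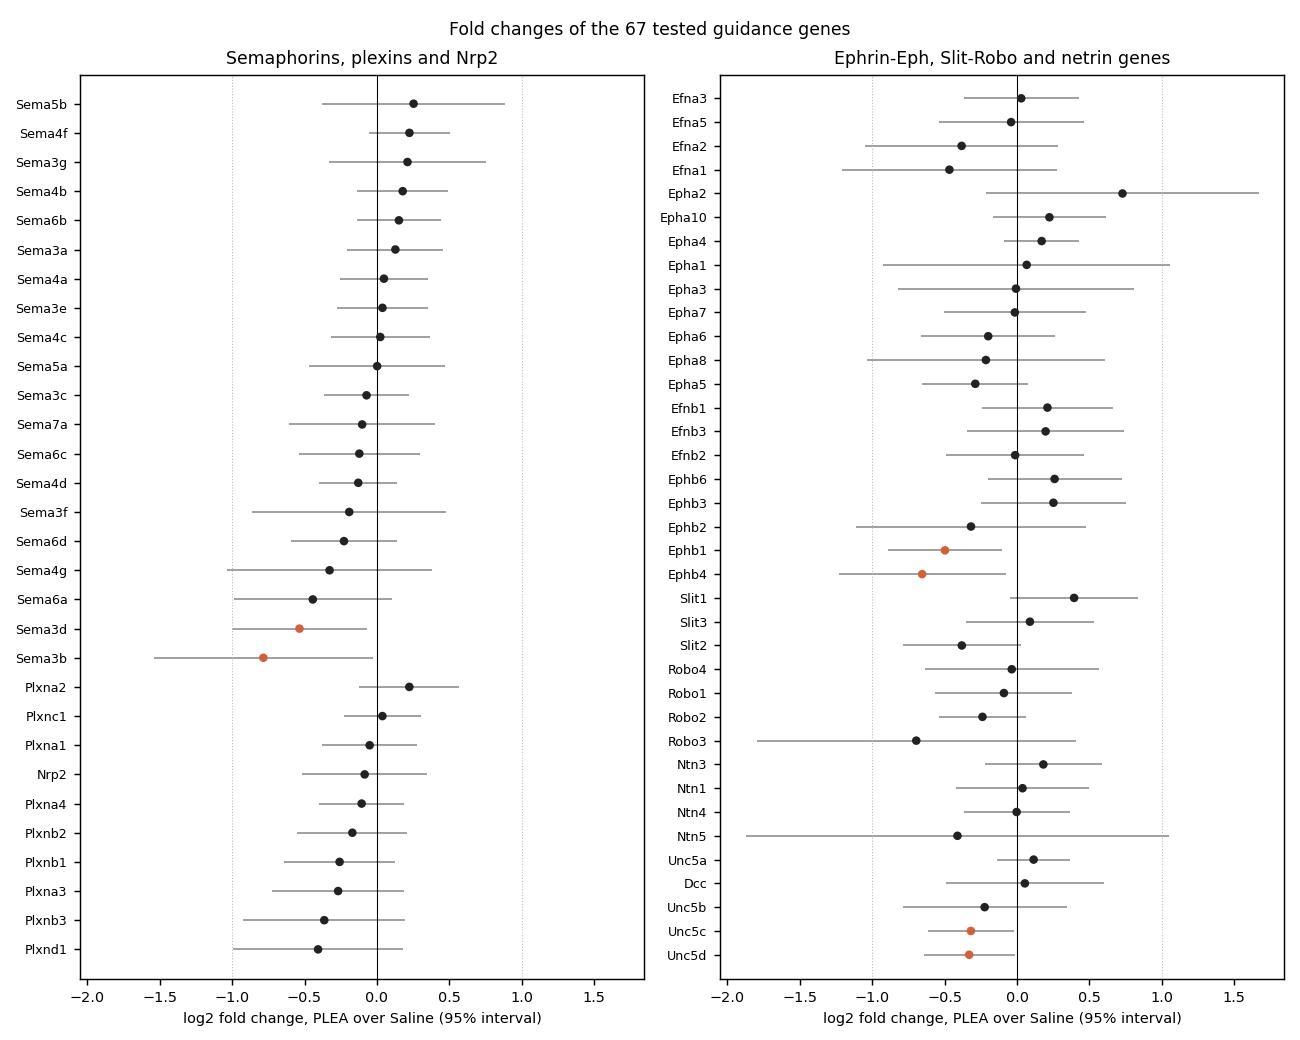
Log2 fold change of the 67 tested guidance genes (PLEA over saline, points) with 95% intervals (lines), by family. The 6 orange points are the genes at an unadjusted p under 0.05, all below 0, and dotted lines mark a log2 value of 1 and -1.

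Among the semaphorin ligands, 10 of 20 had a log2 fold change above 0 and 10 below, between -0.78 and 0.25. Sema3d, a secreted class 3 semaphorin, was at 13.4, 18.7 and 13.85 CPM in saline (here and below in the order of replicates 1, 2 and 3). In PLEA it was at 9.07, 12.7 and 9.95 CPM. Each PLEA library was under each saline library, and the log2 fold change was -0.53 (SE 0.20, edgeR adjusted p = 0.818). Sema3b, another secreted class 3 member, was at 4.11, 3.76 and 4.43 CPM in saline and at 1.62, 1.98 and 3.52 CPM in PLEA. Its groups did not overlap either, though PLEA replicate 3 lay close to the saline libraries, and without that library the log2 fold change moved from -0.78 (SE 0.33, edgeR adjusted p = 0.818) to -1.18. Counts for Sema3b were low, 28 to 72 per library. The meningeal marker sums given above were also lower in PLEA without overlap, with 10 of 10 genes below 0 and a median log2 fold change of -1.44. Their part in the Sema3d and Sema3b values was not tested.

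Sema6a, a transmembrane semaphorin that binds class A plexins, stood apart in 1 library. It was at 31.0, 63.4 and 39.1 CPM in saline and at 32.7, 34.0 and 31.6 CPM in PLEA, so that saline replicate 2 was the highest library and saline replicate 1 lay under all 3 PLEA libraries. The log2 fold change of -0.44 (SE 0.24, edgeR adjusted p = 0.818) was -0.10 without saline replicate 2. That library also had the highest sum of oligodendrocyte markers, 5145 CPM against 2642 to 3712 CPM in the others, and the part of these cells in the Sema6a value was not tested. Sema4f and Sema4b, both transmembrane semaphorins of class 4, had the smallest p among the ligands of this family above 0. Sema4f was at 39.6, 42.0 and 47.5 CPM in saline and 50.7, 46.2 and 53.9 CPM in PLEA (log2 fold change 0.22, SE 0.12, edgeR adjusted p = 0.818), with overlapping groups. Sema4b was at 18.01, 18.6 and 18.7 CPM in saline and 18.1, 21.8 and 22.6 CPM in PLEA (log2 fold change 0.18, SE 0.14, edgeR adjusted p = 0.85, or 0.12 without PLEA replicate 3), also with overlap.

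Sema7a, the highest of all the guidance genes per length, was at 139, 125 and 105 CPM in saline and at 150, 80.3 and 114 CPM in PLEA. The PLEA libraries held both its highest and its lowest value, and the log2 fold change was -0.10 (SE 0.22, 95% interval -0.60 to 0.40, edgeR adjusted p = 0.946). Sema6b, the next semaphorin in level, had a log2 fold change of 0.15 (SE 0.13). Sema3a, a repellent known from injured brain and from perineuronal nets, had 0.13 (SE 0.14, 95% interval -0.20 to 0.46), and Sema3e, the ligand of Plxnd1, had 0.04 (SE 0.14). Sema4d, a ligand of Plxnb1, had -0.13 (SE 0.12). Sema6d, a transmembrane class 6 member, was at 84.3 to 134 CPM over the libraries, with a log2 fold change of -0.23 (SE 0.16), and Sema5a, which can attract or repel, at 54.9 to 90.7 CPM with 0.001 (SE 0.20). Sema3c, a class 3 member, had a narrow range of 30.2 to 38.8 CPM and a log2 fold change of -0.07 (SE 0.13), while Sema3f, which signals through Nrp2, was at 25.1 CPM in saline replicate 2 and between 11.2 and 15.7 CPM elsewhere (log2 fold change -0.19, SE 0.29). The semaphorins not named so far also had overlapping groups, with log2 fold changes from -0.33 (Sema4g, highest in saline replicate 2) to 0.25 (Sema5b, lowest in saline replicate 2).

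Of the 9 plexins and Nrp2, 8 had a log2 fold change below 0, and none was at an unadjusted p under 0.05. Plxnd1, a Sema3e receptor of endothelium and of some neurons, was at 146, 72.2 and 117 CPM in saline and at 102, 65.7 and 85.1 CPM in PLEA. The groups overlapped, and the log2 fold change was -0.41 (SE 0.26, edgeR adjusted p = 0.84). It moved to -0.26 when PLEA replicate 2 was left out, to -0.65 when saline replicate 2 was, and to -0.16 when saline replicate 1 was. Saline replicate 1 was also highest for endothelial markers (319.5 CPM in sum, against 177 to 243 CPM in the others). It was highest as well for meningeal, astrocyte, mural cell, microglial and infiltrating myeloid markers. The part of any of these cells in the Plxnd1 value was not tested. Plxna2, a receptor for class 6 semaphorins, was at 183, 174 and 246 CPM in saline and 228, 244 and 231 CPM in PLEA (log2 fold change 0.22, SE 0.15, edgeR adjusted p = 0.842). Its 3 PLEA libraries lay close together, inside the range of saline, and the value was 0.13 without saline replicate 2 and 0.38 without saline replicate 3. Class B plexins had values of -0.26 (SE 0.17) for Plxnb1, -0.17 (SE 0.17) for Plxnb2 and -0.36 (SE 0.24) for Plxnb3. The other members of this receptor family, Plxna1, Plxna3, Plxna4, Plxnc1 and Nrp2, lay between -0.27 and 0.04. Their summed level was 94.2 ± 3.89 CPM per kilobase (SD, n = 3) for plexins and Nrp2 in saline and 86.4 ± 5.91 (SD, n = 3) in PLEA, and the ranges overlapped.

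Among the ephrin-Eph genes, the B receptors held the values farthest below 0. Ephb1, a receptor for B-class ephrins, was at 44.5, 69.8 and 50.2 CPM in saline and at 39.8, 38.3 and 38.4 CPM in PLEA. The PLEA libraries were nearly equal and lay under all 3 saline libraries. The log2 fold change was -0.50 (SE 0.17, 95% interval -0.89 to -0.11, edgeR adjusted p = 0.818), or -0.29 without saline replicate 2. In the deposited table Ephb1 spans bases 101799327 to 102231892 of chromosome 9 on the minus strand. The upstream sequence printed above, at 102354694 to 102354943 on GRCm38.p6, does not adjoin that span. Sema7a, on the plus strand, spans bases 57847395 to 57870148 of the same chromosome there, and its printed upstream sequence lies beyond that end. The table's coordinates and those of RefSeq are therefore not on the same build. Ephb4, a receptor of venous endothelium, was at 8.68, 6.36 and 5.29 CPM in saline and 4.80, 4.36 and 3.75 CPM in PLEA, again without overlap (log2 fold change -0.66, SE 0.25, edgeR adjusted p = 0.818), or -0.43 without saline replicate 1. Endothelial markers summed to 208 to 319.5 CPM in saline and 177 to 232 CPM in PLEA, and mural cell markers were lower in PLEA without overlap (sums above, 4 of 4 genes below 0, median log2 fold change -0.36). The part of either in the Ephb4 value was not tested. Ephb6 was above all saline libraries in PLEA replicates 1 and 3 and under them in PLEA replicate 2. It was at 107, 107 and 112 CPM in saline and at 173, 94.1 and 122 CPM in PLEA. Its log2 fold change of 0.26 (SE 0.20, edgeR adjusted p = 0.853) was -0.01 without PLEA replicate 1 and 0.44 without PLEA replicate 2. Ephb2 and Ephb3 had -0.32 (SE 0.35) and 0.25 (SE 0.22), each with overlapping groups.

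Epha4, a receptor known to limit regrowth of corticospinal axons, was the 1 guidance gene whose PLEA libraries were all higher than saline. It was at 195, 227 and 214 CPM in saline and at 243, 242.5 and 229 CPM in PLEA. The gap between the groups was narrow, from 227 to 229 CPM, and the log2 fold change was 0.17 (SE 0.11, 95% interval -0.09 to 0.43, edgeR adjusted p = 0.842). Epha10, a kinase-deficient A receptor, was at 45.0, 69.8 and 55.2 CPM in saline and 59.2, 66.7 and 72.6 CPM in PLEA (log2 fold change 0.22, SE 0.17, edgeR adjusted p = 0.85), or 0.09 without saline replicate 1 and 0.40 without saline replicate 2. Epha2, an A receptor best known from epithelia, was at 2.35, 0.809 and 1.35 CPM in saline and 2.14, 2.38 and 2.96 CPM in PLEA. Its counts were low, 14 to 40 in saline and 37 to 53 in PLEA. Its log2 fold change of 0.73 (SE 0.41, edgeR adjusted p = 0.823) was the largest above 0 among the guidance genes, with overlapping groups, and it was 1.21 without saline replicate 1 and 0.42 without saline replicate 2. Epha5, which binds A-class ephrins in forebrain neurons, had -0.29 (SE 0.16), and Epha3, Epha6, Epha7 and Epha8 lay between -0.22 and -0.008. Epha1 had 0.07 (SE 0.43), and its span overlaps that of the opposite-strand gene Zyx over 1727 bases, so that without knowledge of strand its few counts may hold Zyx reads.

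The ephrin ligands showed no value at an unadjusted p under 0.05. Efna3, the highest A-class ephrin per length, was at 23.0, 27.9 and 34.6 CPM in saline and 33.1, 27.9 and 26.2 CPM in PLEA, with a log2 fold change of 0.03 (SE 0.17, 95% interval -0.37 to 0.43, edgeR adjusted p = 0.986). Efna1, Efna2 and Efna5 had -0.47 (SE 0.33), -0.38 (SE 0.29) and -0.04 (SE 0.22). The transmembrane ephrin Efnb3, a repellent at the spinal midline that is also found in myelin, was at 72.2, 112 and 115 CPM in saline and 81.2, 138 and 124 CPM in PLEA. Replicate 1 was the lowest library of each group, and the log2 fold change was 0.20 (SE 0.24, edgeR adjusted p = 0.892). Leaving out saline replicate 1 gave 0.02, and leaving out PLEA replicate 1 or 2 gave 0.385 or 0.04. Efnb1 had 0.21 (SE 0.20) and Efnb2, the ligand of Ephb4 on arterial endothelium, -0.01 (SE 0.21).

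In the Slit-Robo system the ligands went in different directions and the receptors were all below 0. Slit1, the highest Slit per length, was at 60.7, 98.2 and 77.4 CPM in saline and at 86.9, 103 and 120.5 CPM in PLEA. Saline replicate 2 lay inside the PLEA range, and the log2 fold change was 0.39 (SE 0.19, 95% interval -0.05 to 0.84, edgeR adjusted p = 0.818), or 0.24 without saline replicate 1. Slit2 was at 45.1, 66.2 and 52.8 CPM in saline and at 49.1, 35.6 and 41.2 CPM in PLEA. Its groups overlapped as well, and the log2 fold change of -0.38 (SE 0.18, 95% interval -0.79 to 0.02, edgeR adjusted p = 0.818) was -0.22 without saline replicate 2. Slit3 had 0.09 (SE 0.19). Robo2, the highest receptor of this family per length, was at 158, 152 and 191 CPM in saline and 155, 131 and 139 CPM in PLEA, with overlap through PLEA replicate 1 (log2 fold change -0.24, SE 0.13, edgeR adjusted p = 0.818, or -0.145 without saline replicate 3). Robo1 had -0.09 (SE 0.21) and Robo4, the endothelial Robo, -0.04 (SE 0.26). Both signs depended on single libraries. Robo1 had 0.06 without saline replicate 3, and Robo4 had 0.23 without saline replicate 1 and 0.09 without PLEA replicate 2. The summed Robo level was 20.1 ± 1.81 CPM per kilobase (SD, n = 3) in saline and 16.7 ± 1.83 (SD, n = 3) in PLEA, and the summed Slit level was 21.9 ± 3.79 (SD, n = 3) and 25.97 ± 3.315 (SD, n = 3), and in both sums the groups overlapped.

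Among the netrin receptors, Unc5c and Unc5d were both lower in the PLEA means. Unc5c, a repulsive netrin receptor, was at 46.5, 54.5 and 53.7 CPM in saline and at 45.5, 36.6 and 41.9 CPM in PLEA. The groups did not overlap, although saline replicate 1 and PLEA replicate 1 were close, and the log2 fold change was -0.32 (SE 0.13, 95% interval -0.61 to -0.02, edgeR adjusted p = 0.818). Unc5d, known from upper cortical layers, was at 62.7, 85.8 and 79.4 CPM in saline and at 63.0, 58.5 and 59.8 CPM in PLEA, with saline replicate 1 inside the PLEA range (log2 fold change -0.33, SE 0.14, edgeR adjusted p = 0.818). Unc5a, the highest receptor of the family per length, was nearly level: it was at 81.7, 80.3 and 91.5 CPM in saline and 85.4, 93.3 and 95.8 CPM in PLEA (log2 fold change 0.11, SE 0.11, 95% interval -0.14 to 0.37, edgeR adjusted p = 0.872). Unc5b had -0.22 (SE 0.25) and Dcc, the attractive netrin receptor, 0.05 (SE 0.24, 95% interval -0.49 to 0.60).

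The netrin ligands themselves were low. Ntn1, the founding secreted netrin, was at 21.8, 16.65 and 26.1 CPM in saline and 17.8, 24.0 and 24.5 CPM in PLEA (log2 fold change 0.04, SE 0.20, 95% interval -0.42 to 0.50, edgeR adjusted p = 0.982). Ntn4, a netrin of basement membranes, had -0.003 (SE 0.16) and a narrow range of 10.6 to 12.6 CPM over the libraries. Ntn3 had 0.18 (SE 0.18), but its span lies over 1715 bases within that of the more abundant same-strand gene Tbc1d24, so the 2 may share reads. Ntn5 had -0.41 (SE 0.64) and its span overlaps the opposite-strand gene Sec1 over 10381 bases.

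**Figure D3:**
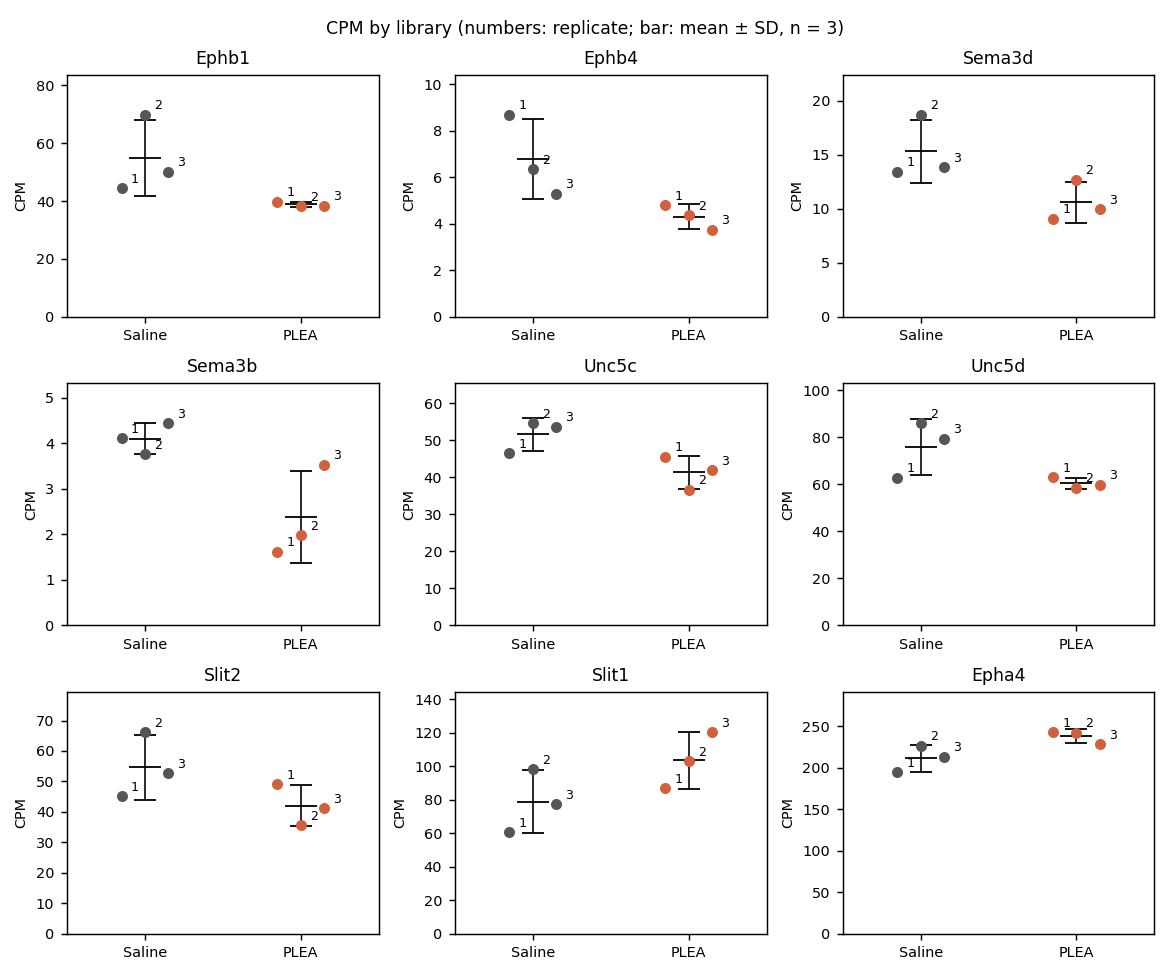
CPM in each library (points, numbered by replicate) with mean ± SD (bars, n = 3) for the 6 guidance genes at an unadjusted p under 0.05 and for Slit2, Slit1 and Epha4. Groups do not overlap for Ephb1, Ephb4, Sema3d, Sema3b, Unc5c and Epha4, and they do for Unc5d, Slit2 and Slit1.

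The guidance genes also varied between single libraries. The ratio of the highest to the lowest of the 6 libraries, both groups together, had a median of 1.71 over the 67 tested genes. Over all tested genes the median was 1.60. Saline replicate 2 was the highest library for 24 of the 68 genes and the lowest for 15, while saline replicate 1 and PLEA replicate 2 were each the lowest for 20. Several genes were set apart in saline replicate 2, the library with the lowest striatal and the highest oligodendrocyte marker sums: Sema4g was at 66.4 CPM there and between 26.5 and 38.1 CPM elsewhere, and Ephb2, a synaptic B receptor, was at 31.7 CPM there and between 12.6 and 19.9 CPM elsewhere. The part of these cells in those values was not tested.

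**Figure D4:**
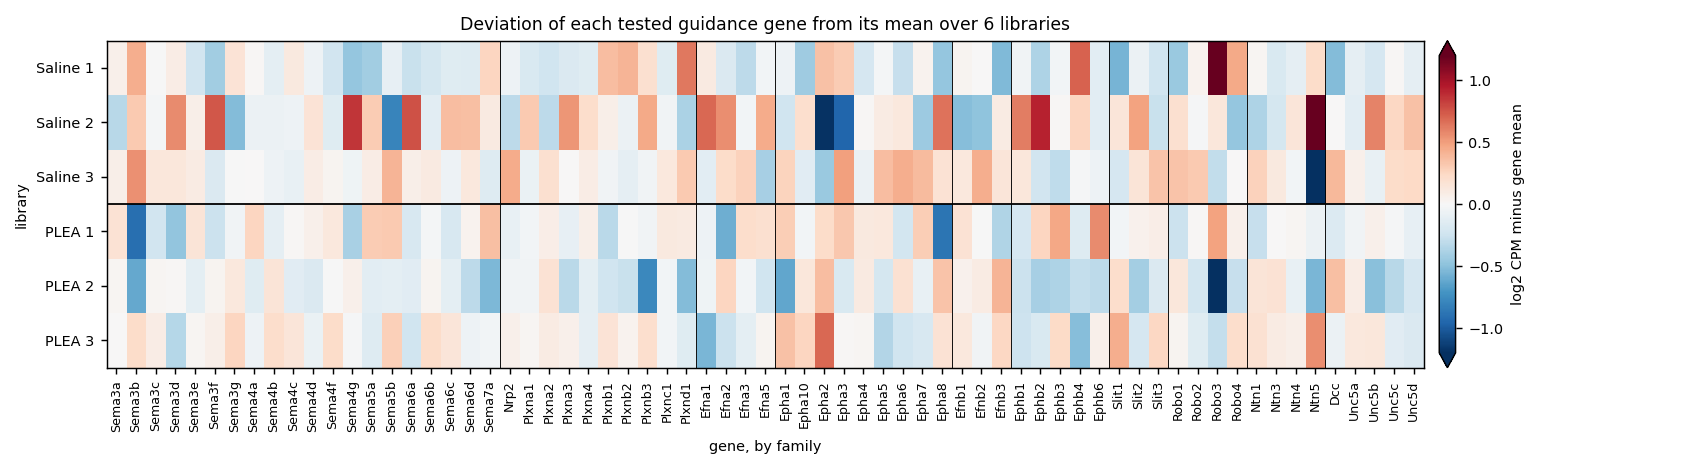
Deviation of each tested guidance gene from its own mean over the 6 libraries (log2 CPM, colour scale, red higher and blue lower), with libraries in rows and genes in columns by family. Ntn5 is high in saline replicate 2 and low in saline replicate 3, Robo3 is high in saline replicate 1 and low in PLEA replicate 2, and the horizontal line divides saline from PLEA.

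Other genes of these pathways gave the same kind of result. Of 68 listed co-receptors, signalling proteins and growth inhibitors, all tested, edgeR called 0 in either direction, and at an unadjusted p under 0.05 there were 0 higher and 3 lower, or 4.41%, against the 3.58% of all tested genes. Of these 3, Rgma, a repellent that binds neogenin, was at 47.2, 66.7 and 60.9 CPM in saline and at 44.4, 37.45 and 48.2 CPM in PLEA, with overlap through saline replicate 1 (log2 fold change -0.43, SE 0.16, edgeR adjusted p = 0.818). Nck1, an adaptor for Eph receptors, was at 22.8, 23.35 and 23.3 CPM in saline and at 20.9, 17.5 and 17.1 CPM in PLEA, without overlap. Vav3, of the same list, was at 9.56, 15.95 and 6.77 CPM in saline and at 6.01, 7.31 and 5.81 CPM in PLEA, with overlap. The log2 fold change was -0.325 (SE 0.13) for Nck1 and -0.755 (SE 0.31) for Vav3, and edgeR gave both an adjusted p of 0.818. Trio, an exchange factor downstream of Dcc, had all PLEA libraries above the saline libraries, with 222, 230 and 249 CPM in saline and 251.5, 295 and 287 CPM in PLEA (log2 fold change 0.25, SE 0.12, edgeR adjusted p = 0.818).

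By list, the median log2 fold change was -0.08 over 17 semaphorin signalling genes, 0.015 over 11 Eph signalling genes, 0.06 over 11 Slit-Robo signalling genes, -0.04 over 10 netrin signalling genes and 0.04 over 8 genes of myelin-associated growth inhibition. In the semaphorin list, Fes, a kinase, had -0.753 (SE 0.495), the adhesion gene Chl1 -0.29 (SE 0.195) and Farp2 -0.24 (SE 0.175). In the Slit-Robo list, Arhgap39, Abl2 and Gpc1 had 0.19 (SE 0.13), 0.20 (SE 0.145) and 0.16 (SE 0.12). Of the genes of myelin-associated inhibition, 5 of 8 were above 0. Rtn4rl2, a Nogo receptor homologue, had 0.25 (SE 0.21), Omg -0.22 (SE 0.145) and Mag -0.21 (SE 0.29). Mag was highest in saline replicate 2 at 215 CPM, as were the oligodendrocyte markers.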

How the data were processed

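Libraries were made with a SMARTer mRNA kit from 1.3 µg of RNA of infarcted cortex, per the labels' protocols. A single table deposited by the authors holds raw, unnormalized counts and a length for every gene. Its aligner, counting tool and strand setting were not given in the sources used here. Spans are printed as the table gives them, with no build attached. GRCm38 and mm10 are named in the submitters' processing notes, but the Ephb1 and Sema7a spans do not meet RefSeq's starts on GRCm38.p6.

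The deposited counts went into edgeR 4.0.16 (R 4.3.3): filterByExpr, TMM factors and the quasi-likelihood test, with treatment alone in the model and all groups in 1 fit. P-values were adjusted by Benjamini-Hochberg over the 17584 genes that passed the filter, at a threshold of 0.05. A standard error is the size of the log2 fold change over the square root of F, and 95% intervals use the test's degrees of freedom. Levels were compared between genes only per kilobase of deposited length. The procedure was tested on simulated data. Precision is limited by the number of libraries and, for genes of few counts, by depth.

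Values in every library are given for the 8 tested members with the smallest p in each direction and for the highest member of each family per length. From 6 lists of other pathway genes, up to 3 with the smallest p each could be named, and 1 of these lists is not reported here by itself. Members and lists were chosen with earlier results of these data known. Sema4g, Ephb2, Robo3 and Ntn5 were singled out after their values were seen. Alternatives were RLE factors, DESeq2 1.42.0, limma voom (limma 3.58.1), no filter, protein-coding genes only, the replicate number as a block and leaving out each library. Upstream sequences are RefSeq's on GRCm38.p6.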

Additional observations from a re-analysis of the deposited data

How the results depend on the processing

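In none of the 12 alternatives did a guidance gene pass an adjusted p of 0.05. Over all genes the calls numbered 0 and 0, but 4 higher and 37 lower under DESeq2 and 7 higher and 31 lower with no filter, and leaving out 1 library gave 0 to 1 lower. Guidance genes at an unadjusted p under 0.05 numbered 0 higher and 6 lower. Without the filter there were 1 higher (Slit1) and 10 lower (14.7%, against 3.95% of all genes tested). Leaving out 1 library gave 0 to 2 higher and 1 to 7 lower, or 1.49% (against 1.89%, without PLEA replicate 2) to 10.4% (against 4.93%, without PLEA replicate 1). Ephb1 was among the lower genes in 4 of the 6 fits that left out 1 library, and the cause of these differences was not tested. DESeq2, RLE factors and limma voom gave the same 6 genes, and protein-coding genes alone gave 5 of them. The labels state no pairing of replicate numbers. Correlations of same-numbered deviations were 0.373, 0.173 and -0.018, and those of different-numbered libraries ran from -0.358 to 0.23. With 3 libraries per group, these values cannot decide whether libraries were paired. With the replicate block, 1 guidance gene was higher (Slit1) and 6 were lower at an unadjusted p under 0.05, 4 of them shared, or 8.96% against 5.07% of all tested genes, where the fit with no block had 3.58%. Log2 fold changes turned for some genes when 1 library was left out. Among those chosen by p or level were Efna3 (-0.095 to 0.179), Ephb6 (-0.013 to 0.444), Ntn1 (-0.122 to 0.185) and Sema7a (-0.353 to 0.1). Depth limits Efna1, Efna4, Epha1, Epha2 and Sema3b, which had 72 counts or fewer in each library, and Ntn5, which had 10 to 83.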

Other observations

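Robo3, a divergent Robo that does not bind Slits in mammals, had the widest range over libraries after Ntn5 among the tested guidance genes. It was at 48.6, 22.9 and 16.9 CPM in the saline libraries and at 28.95, 8.67 and 16.99 CPM in the PLEA libraries. Its log2 fold change of -0.70 (SE 0.48, edgeR adjusted p = 0.842) was -0.12 without saline replicate 1 and -1.22 without PLEA replicate 1. Ntn5 was at 2.11, 4.80 and 0.6155 CPM in saline and at 1.73, 1.25 and 2.68 CPM in PLEA, so that the saline libraries held both its highest and its lowest value. Its counts were low, 10 to 83 per library, so its range is imprecise.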
